A study of Mus musculus with 24 samples.

Results

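The nuclear genes for the subunits of oxidative phosphorylation were followed across 24 mouse RNA-seq libraries made from the anterior cingulate, a frontal midline area of cortex. Members were all rows of the deposited expression table whose symbol starts with Ndufa, Ndufb, Ndufc, Ndufs or Ndufv and a digit, with Uqcr, with Atp5, with Sdha to Sdhd, or with Cox4 to Cox8. That rule gave 84 genes, and all 84 had a mean of at least 1 FPKM (fragments scaled by gene length and library depth) over the 24 libraries, out of 12572 genes that did so and 15232 genes in the table. They comprised 34 genes of complex I, 4 of complex II, 8 of complex III, 16 of complex IV and 15 of complex V. The remaining 7 matched by name only, as assembly or other associated factors: Sdhaf1, Sdhaf2, Sdhaf3, Sdhaf4, Atp5s, Atp5sl and Cox7a2l. Ndufa4 and Ndufa4l2 were counted with complex IV, to which their products are now assigned, and Cyc1, a catalytic subunit of complex III, falls outside the name rule.

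The respiratory chain sits in the inner mitochondrial membrane. Complexes I and II feed electrons from NADH and succinate into ubiquinone, complex III passes them to cytochrome c, complex IV reduces oxygen, and complex V uses the resulting proton gradient to make ATP. Apart from complex II, the complexes combine subunits from the nuclear and the mitochondrial genome, and neurons depend heavily on this pathway to power ion pumping at synapses.

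The libraries fall into 3 arms with 8 mice apiece, 4 of each sex: untrained mice labelled wild type (WT), untrained mice labelled Thbs1/2 knockout (KO) and mice labelled Thbs1/2 KO that underwent operant-chamber training. The 2 named genes code for thrombospondins, which cells secrete into the matrix around synapses. Per the labels' protocols food was freely available until training, when animals were deprived of food, so training and food deprivation cannot be told apart. No trained arm labelled WT was analysed here, and the labels used here give neither age nor strain. The RNA came from all cells of the tissue piece, so that fewer cells of a type and less RNA per cell cannot be told apart. Each library is 1 animal by its animal number.

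Some facts of the whole series bear on every result. Depth was 12343773 to 27233267 recovered reads per library. Thbs1 and Thbs2 went against the genotype labels: Thbs1 was at 0.254 to 0.716 FPKM in the libraries labelled WT and at 2.77 to 5.04 FPKM in the untrained libraries labelled KO, and Thbs2 at 1.52 to 2.31 and 2.82 to 3.95 FPKM. Directions between genotypes are therefore given between libraries as labelled. Animal numbers over 1000 were carried by all 8 trained mice, by 2 of 8 in the untrained KO arm and by 1 of 8 in the WT arm, the last 3 all male, so that in females animal number and training cannot be told apart. Neuron markers were present in every arm (summed over 8 genes, 2104 to 3664 FPKM), as were excitatory neuron markers (834 to 1748 FPKM over 7 genes). Markers of the neighbouring striatum summed to medians of 141, 113 and 139 FPKM in the libraries labelled WT, the untrained KO and the trained KO arms, with 789.9 FPKM in 1 untrained library labelled KO.

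NRF1, the ETS factor GABP and YY1 are known regulators of many nuclear respiratory genes, and the members' promoters were searched for the core letters of their motifs. RefSeq promoters (build GRCm38.p6, from 250 bases before to 50 bases after the annotated start) matched 70 of the 84 members. The letters CGCATGCG, the core of the NRF1 motif, occurred on either strand in 9 of the 70 (12.9%) against 2.07% of 27025 genes with a promoter in the table and 4.24% of the tested genes. CCGGAAG, the ETS letters, occurred in 19 (27.1%) against 9.93% and 19.4%. AAGATGG, the YY1 letters, occurred in 12 (17.1%) against 7.28% and 8.46%. At least 1 of these strings occurred in 34 of the 70 members (48.6%) against 17.9% of all 27025 genes. The share of tested genes with at least 1 string was not computed, and each single string was more frequent in tested than in all genes. These matches describe letters in a window and are not binding sites. CCGGAAG and AAGATGG can share the letters AAG, and 1 promoter can hold several strings. Shown here are promoters of 4 members that differed between arms below, Atp5l, Uqcrh, Sdhaf2 and Cox7b, and of Atp5j2, which had the largest difference between trained libraries labelled KO and untrained libraries labelled WT. Capitals mark the motif letters on either strand, and the Cox7b promoter, which holds none of the 3 strings, has no capitals.
Atp5l, chr9:44920693-44920992, minus strand: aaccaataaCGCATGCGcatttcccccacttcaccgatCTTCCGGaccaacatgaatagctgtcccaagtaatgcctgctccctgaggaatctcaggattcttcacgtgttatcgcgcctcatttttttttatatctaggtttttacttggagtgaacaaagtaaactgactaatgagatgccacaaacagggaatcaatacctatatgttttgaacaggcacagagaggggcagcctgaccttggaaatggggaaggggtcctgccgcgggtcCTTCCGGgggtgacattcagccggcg
Uqcrh, chr4:116075021-116075320, minus strand: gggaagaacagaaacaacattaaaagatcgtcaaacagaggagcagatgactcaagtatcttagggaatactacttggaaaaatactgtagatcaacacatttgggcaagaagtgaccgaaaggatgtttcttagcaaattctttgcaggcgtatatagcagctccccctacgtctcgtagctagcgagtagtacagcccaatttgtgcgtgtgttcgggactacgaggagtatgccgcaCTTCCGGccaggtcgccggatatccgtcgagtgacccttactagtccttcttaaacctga
Sdhaf2, chr19:10525160-10525459, minus strand: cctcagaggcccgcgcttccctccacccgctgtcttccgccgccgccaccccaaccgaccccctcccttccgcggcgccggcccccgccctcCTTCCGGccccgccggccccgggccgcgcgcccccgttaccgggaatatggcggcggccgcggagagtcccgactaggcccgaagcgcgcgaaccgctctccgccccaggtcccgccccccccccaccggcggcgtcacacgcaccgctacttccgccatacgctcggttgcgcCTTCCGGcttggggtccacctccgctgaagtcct
Atp5j2, chr5:145191492-145191791, minus strand: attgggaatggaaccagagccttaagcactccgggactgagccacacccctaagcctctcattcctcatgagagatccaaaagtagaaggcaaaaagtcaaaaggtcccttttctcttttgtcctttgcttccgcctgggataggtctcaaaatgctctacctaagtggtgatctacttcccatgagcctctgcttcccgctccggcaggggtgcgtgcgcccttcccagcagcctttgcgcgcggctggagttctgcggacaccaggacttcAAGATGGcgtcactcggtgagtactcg
Cox7b, chrX:106015450-106015749, plus strand: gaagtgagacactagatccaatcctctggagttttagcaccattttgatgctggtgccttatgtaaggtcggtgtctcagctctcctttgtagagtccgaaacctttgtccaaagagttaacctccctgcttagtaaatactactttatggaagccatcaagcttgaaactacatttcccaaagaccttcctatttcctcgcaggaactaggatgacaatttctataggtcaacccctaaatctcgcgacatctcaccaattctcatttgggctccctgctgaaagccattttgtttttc
The Atp5l window holds both the NRF1 and the ETS letters, the Uqcrh and Sdhaf2 windows hold the ETS letters, and the Atp5j2 window holds the YY1 letters just after the annotated start. Among the complexes, NRF1 letters were found in 2 of 30 promoters of complex I, 2 of 5 of complex III, 1 of 11 of complex IV and 4 of 14 of complex V. Longer strings gave 8 of 70 members (11.4%) for GCGCATGCG against 4.04% of tested genes, 8 of 70 (11.4%) for AAGATGGCG against 3.58%, and 2 of 70 (2.86%) for CCGGAAGTG against 4.89%.

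Members were highly expressed. Their median level was 88.9 FPKM against 10.5 FPKM over all tested genes, and together they took 0.838% to 1.13% of the reads of a library. Atp5b, the catalytic beta subunit of ATP synthase, was highest at a mean of 612 FPKM, followed by the complex IV scaffold subunit Cox4i1 at 548 FPKM. By median, complex IV stood at 157 FPKM, complex V at 150.2, complex III at 128, complex II at 85.4 and complex I at 71.1. Subunits of 1 complex differed in level: complex I ran from 25.8 FPKM for Ndufa11 to 174 for Ndufb9, complex II from 55.2 for Sdhc to 164 for Sdha, complex III from 63.1 for Uqcrfs1, the Rieske protein, to 220.2 for the hinge protein Uqcrh, and complex V from 58.8 for Atp5g2 to Atp5b.

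**Figure D1:**
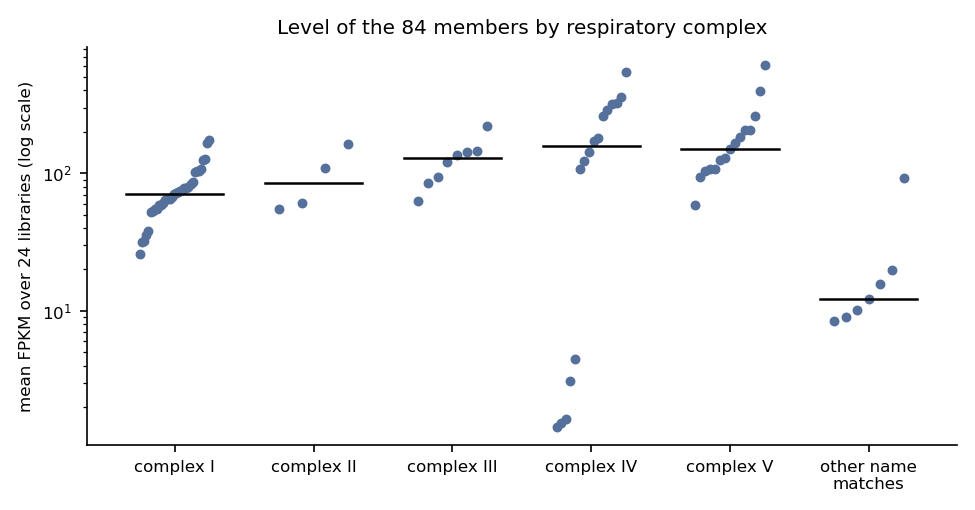
Mean FPKM over 24 libraries (log axis) of each of the 84 members, 1 point each, by complex; bars are the median of each complex. Complex IV spans from 1.43 to 548 FPKM, with 5 subunit isoforms below 5 FPKM, while complex I lies between 25.8 and 174 FPKM.

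The wide range of complex IV came from tissue isoforms of its small subunits. Cox4i1, the common form of subunit 4, was at 548 FPKM, and Cox4i2, known from lung and low-oxygen conditions, at 1.43 FPKM. Cox6a1 was at 323 FPKM against 4.45 for Cox6a2, the heart and muscle form, and Cox6b1 at 287 against 1.63 for Cox6b2, the testis form. For subunit 7a, Cox7a2 was at 142 FPKM and Cox7a1, the heart and muscle form, at 3.11, while the related supercomplex factor Cox7a2l was at 91.7. Cox8a stood at 318 FPKM. Ndufa4 was at 358 FPKM against 1.52 for its paralog Ndufa4l2. In each of these pairs the common form exceeded the other by a wide margin. At these low levels counting limits precision: Cox4i2 had 6 to 33 recovered reads per library, Cox6b2 5 to 47 and Cox7a1 8 to 28. Of the 3 genes for the membrane ring of ATP synthase, which encode the same mature protein, Atp5g3 was at 207 FPKM, Atp5g1 at 150.2 and Atp5g2 at 58.8. Paralogs can share reads, and how the authors counted such reads is not given in the sources used here.

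Spread over the 24 libraries also differed by gene. Sdha, the flavoprotein of complex II, had the lowest coefficient of variation (3.83%), followed by Atp5a1, the alpha subunit of ATP synthase (4.11%). Cox6b2 (45.2%) and Cox7a1 (31.9%), both at low levels, had the highest. Sdha lay at 151, 161 and 176 FPKM (lowest, median and highest of 8) in the libraries labelled WT, at 159.9, 162 and 175 in the untrained libraries labelled KO, and at 161, 165 and 171 in the trained ones. Its ranges overlapped in all 3 arms.

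A feature that most members share is their short length. Gene lengths behind the FPKM values were recovered from the FPKM steps up to a constant factor, which was set from annotated GENCODE exon lengths. Their median was 725.5 bases over members and 3005.5 over tested genes. Of the 84 members, 56 (66.7%) were under 1000 bases against 6.92% of tested genes. No more than 1662 bases were counted for 74 of the members. Median transcript GC content was 51.9% for members (83 with a value) and 50.5% for tested genes. In each comparison the change in short genes as a whole is therefore given beside that of the members, and values are also given after each library was corrected for transcript GC content and gene length in 20 bins each.

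**Figure D2:**
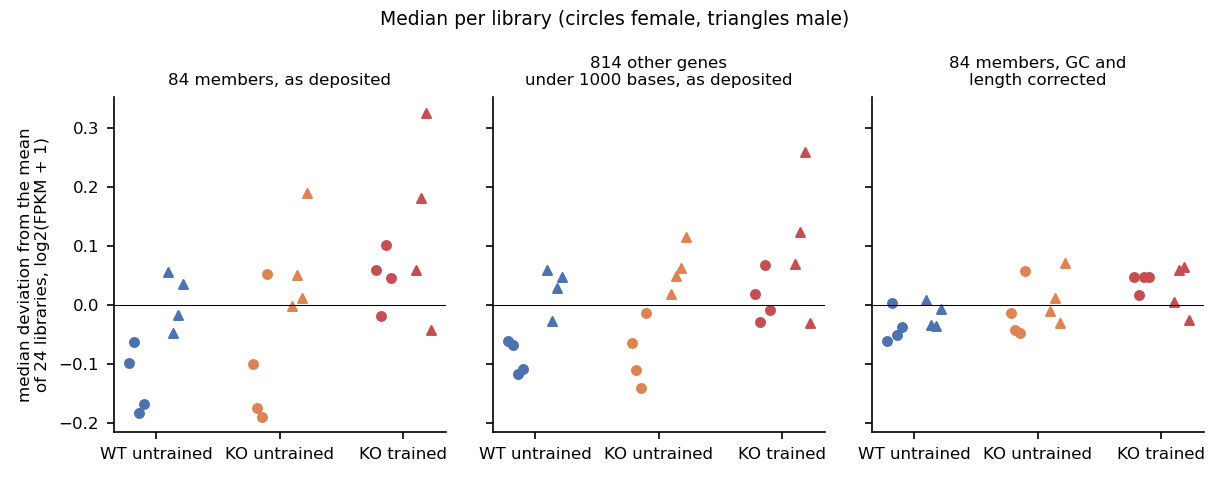
Median over genes of each library's deviation from the gene's mean over 24 libraries, on the log2(FPKM + 1) scale, by arm, with circles for females and triangles for males; left and right panels show the 84 members, the middle panel 814 other tested genes under 1000 bases. Before correction members range over 0.52 between libraries, after correction over 0.13.

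The level of the members as a group varied between libraries along with that of other short genes. The median deviation of the 84 members from their means over 24 libraries ran from -0.18 to 0.05 (median -0.06) in the libraries labelled WT, from -0.19 to 0.19 (median 0.00484) in the untrained libraries labelled KO, and from -0.04 to 0.33 (median 0.06) in the trained ones. The arms overlapped. The same 3 libraries were highest for members and for the 814 other tested genes under 1000 bases: trained males 3 and 2 and untrained male 4, all labelled KO. In 20 of the 24 libraries the members' median and that of the other short genes had the same sign. After correction for GC content and length the range over libraries shrank from 0.52 to 0.13. Corrected medians were -0.04 (range -0.06 to 0.00752), -0.01 (range -0.05 to 0.07) and 0.05 (range -0.02 to 0.06) in the 3 arms in the same order.

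By genotype label, in untrained animals, none of the 84 members passed the threshold of an adjusted p under 0.05 (limma, fitted over all 12572 tested genes), against 1.42% of all tested genes. Limma-voom on the recovered reads called none either, and 9 members had an unadjusted p under 0.05 in the main test. The members' median difference, untrained libraries labelled KO minus libraries labelled WT, was 0.05 on the log2(FPKM + 1) scale, with 64 of 84 positive, against a median of -0.00139 over all tested genes and 0.02 over the other tested genes under 1000 bases. With the GC and length correction the members' median was 0.03 and none passed either, against 1.62% of all genes. Medians by complex ran from 0.03 for complex II to 0.06 for complex V.

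The smallest p-values in that comparison belonged to Atp5j2, the membrane f subunit of ATP synthase, and the complex I subunits Ndufa8 and Ndufc1. Atp5j2 lay at 124, 159 and 186 FPKM (lowest, median and highest of 8) in the libraries labelled WT and at 152, 183 and 230.5 FPKM in the untrained libraries labelled KO. These ranges overlapped, and the difference was 0.22 ± 0.06 (SE) with a limma adjusted p of 0.126. Ndufa8 differed by 0.16 ± 0.05 (adjusted p = 0.168) and Ndufc1 by 0.15 ± 0.05 (adjusted p = 0.18). Of the 12 usual marker and core subunits of the complexes, differences ran from -0.05 for Ndufs1, the largest core subunit of complex I, to 0.14 for its accessory subunit Ndufb8. Thbs1 and Thbs2 lie on chromosomes 2 and 17. Of the 12 members on these chromosomes 11 were positive, with a median of 0.09, and none passed.

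Training in animals labelled KO was the next comparison, of trained with untrained libraries labelled KO. Here 5 of 84 members (5.95%) rose, against 3.5% of all tested genes, and none fell, against 2.17%. They were Sdhaf2, Uqcrh, Cox7b, Atp5l and Ndufb9, that is 1 gene each from complexes I, III, IV and V and 1 assembly factor. The members' median was 0.10 with 74 of 84 positive, while all tested genes had a median of 0.00653 and the other genes under 1000 bases 0.07. Medians were 0.12 for complexes IV and V, 0.10 for complex II, 0.08 for complex I and 0.03 for complex III. After the GC and length correction the members' median was 0.03, none fell, against 3.67% of all tested genes, and 5 rose, against 4.69%: Sdhaf2, Uqcrh, Cox7b and Atp5l again, and Atp5d in place of Ndufb9. With equal sums of FPKM 5 members rose too, while the split over all tested genes went from 440 higher and 273 lower to 235 and 385.

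Sdhaf2 encodes the factor that attaches FAD to the Sdha subunit of complex II. It lay at 10.3, 11.6 and 12.6 FPKM (lowest, median and highest of 8) in the untrained libraries labelled KO and at 13.2, 13.8 and 14.4 FPKM in the trained ones. Every trained library was above every untrained one, and its difference was 0.24 ± 0.04 (SE, limma adjusted p = 0.00567). It is the longest member, at 3097 bases, and the corrected difference was 0.23 (adjusted p = 0.00709). Sdhaf2 was the only member whose 2 groups did not overlap, against 0.962% of all tested genes.

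Uqcrh, the hinge protein that binds cytochrome c1 in complex III, lay at 189.6, 207 and 239 FPKM in the untrained libraries labelled KO and at 234, 244 and 275 FPKM in the trained ones. All 8 trained libraries were above the untrained mean, and the ranges overlapped only at the edge. Its difference was 0.22 ± 0.05 (limma adjusted p = 0.0253), and 0.13 ± 0.04 (adjusted p = 0.0411) with the correction. Cox7b, an X-linked small subunit of complex IV, lay at 88.3, 101 and 119 FPKM and then at 107, 119 and 131 FPKM. It differed by 0.22 ± 0.06 (adjusted p = 0.039), with the same size after correction (0.22, adjusted p = 0.0337).

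Atp5l, the membrane g subunit of ATP synthase, lay at 71.2, 88.0 and 118 FPKM in the untrained libraries labelled KO and at 91.6, 108 and 124 FPKM in the trained ones, a difference of 0.30 ± 0.08 (limma adjusted p = 0.0403). The ranges overlapped over much of their width, although all 8 trained libraries exceeded the untrained mean. Ndufb9, an accessory subunit of the membrane arm of complex I, lay at 149, 166 and 198 FPKM and then at 178, 186 and 224 FPKM (0.19 ± 0.06, adjusted p = 0.0494). With the correction its difference was 0.09 (adjusted p = 0.0939), so its call did not hold.

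**Figure D3:**
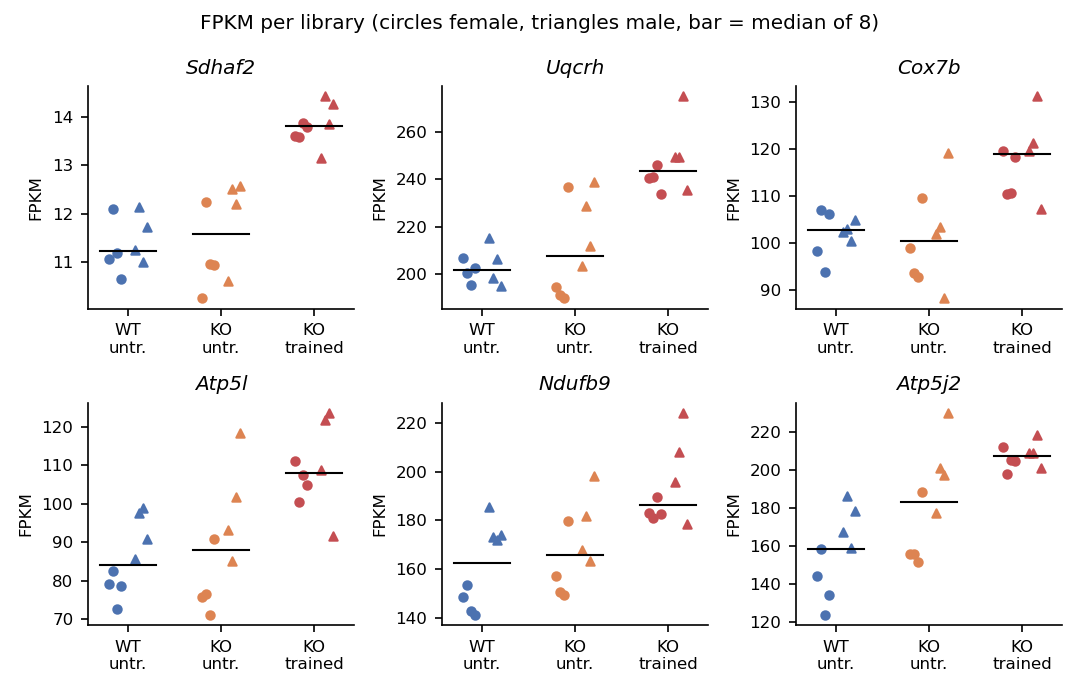
FPKM of 6 members in each of 24 libraries, by arm (linear axes that do not start at 0; circles females, triangles males, bars the median of 8). For Sdhaf2 the trained libraries, at 13.2 to 14.4 FPKM, lie above all untrained ones, while Atp5l and Atp5j2 overlap between the trained and untrained arms labelled KO.

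Most of these calls depended on which libraries were included and on how animal number was treated. Leaving out 1 library at a time moved the count by over 1.5 times for 14 of 16 libraries: 12 left 2 or fewer members called, while the count was 11 without untrained male 4 and 17 without trained male 4. Among the 12, the count was 1 without trained female 1, untrained female 1 or untrained female 3, and 2 without each of the other 9. Sdhaf2 stayed called in all 16 leave-outs, Uqcrh in 13 (it was lost without trained female 1 or untrained female 1 or 3, with an adjusted p of up to 0.0606), Cox7b and Atp5l in 4 and Ndufb9 in 3. With animal number over 1000 as a covariate no member and no gene of all 12572 was called, with 20 members at an unadjusted p under 0.05, and the members' median was 0.12. The training difference in that fit rests on the 2 untrained males with such numbers, so it cannot decide whether the calls hold. Within males with numbers over 1000 (4 trained, 2 untrained) none was called either, with 11 at an unadjusted p under 0.05, and the median was 0.09.

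None of 12 usual marker subunits of the complexes passed with training. In complex I, Ndufs1 differed by -0.04 (limma adjusted p = 0.618), Ndufv1 by 0.02 (0.808), Ndufb8 by 0.04 (0.702) and Ndufa9 by 0.10 (0.179). In complex II, Sdha differed by 0.00471 (0.952) and the iron-sulfur subunit Sdhb by 0.04 (0.645). The complex III core protein Uqcrc1 differed by 0.03 (0.791) and Uqcrfs1 by 0.01 (0.945), Cox4i1 by 0.05 (0.628) and Cox5a by 0.09 (0.34), and Atp5a1 by -0.01 (0.875) and Atp5b by 0.08 (0.328), with adjusted p in parentheses throughout. The standard errors lay between 0.03 and 0.06. The 7 core subunits of complex I had a median of 0.07, from -0.08 for Ndufs7 to 0.18 for Ndufv2 (limma adjusted p = 0.0851), and none passed.

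Trained libraries labelled KO were last set against untrained libraries labelled WT, a pair of arms that differs in both labels and shares each arm with a comparison above. Here 41 of 84 members (48.8%) rose, against 12.9% of all tested genes, and none fell, against 11.5%. By complex, 14 of 34 rose in complex I, 1 of 4 in complex II, 2 of 8 in complex III, 12 of 16 in complex IV, 9 of 15 in complex V and 3 of the 7 other name matches. The members' median was 0.14, with medians of 0.20 in complexes IV and V, 0.12 in complex I, 0.10 in complex II and 0.08 in complex III. All tested genes had a median of 0.00322. Other tested genes under 1000 bases had a median of 0.08, with 24.7% of them higher and 5.53% lower. The difference between complexes was not tested. Without trained female 1 the count was 27, and it was 54 without trained male 4. Of the 41 members, 26 stayed called in each of the 16 leave-outs of 1 library and 15 were lost in some. Scaling each library to an equal sum of FPKM gave 31 members higher and 2 lower, and turned the split over all tested genes from 1626 higher and 1448 lower to 1095 and 2112.

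The count differed with gene length. Among members under 1000 bases 31 of 56 rose (55.4%), and among longer members 10 of 28 (35.7%). After the GC and length correction 23 of 84 rose (27.4%) against 14.3% of all tested genes, 4 fell against 13.9%, and the median was 0.05. The 4 that fell were the complex I core subunit Ndufs1, the accessory subunit Ndufb10, the muscle isoform Cox6a2 and the complex II assembly factor Sdhaf1. Of the 41 genes called as deposited, 23 were called after correction too. With animal number over 1000 as a covariate none of the 84 was called, with 10 at an unadjusted p under 0.05 and a median of 0.08. All 8 trained mice but only 1 of 8 labelled WT carry such numbers. The difference in that fit therefore rests on 1 WT library, and it cannot decide whether the calls hold. Over all 12572 genes 12 were higher and 10 lower in the same fit.

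**Figure D4:**
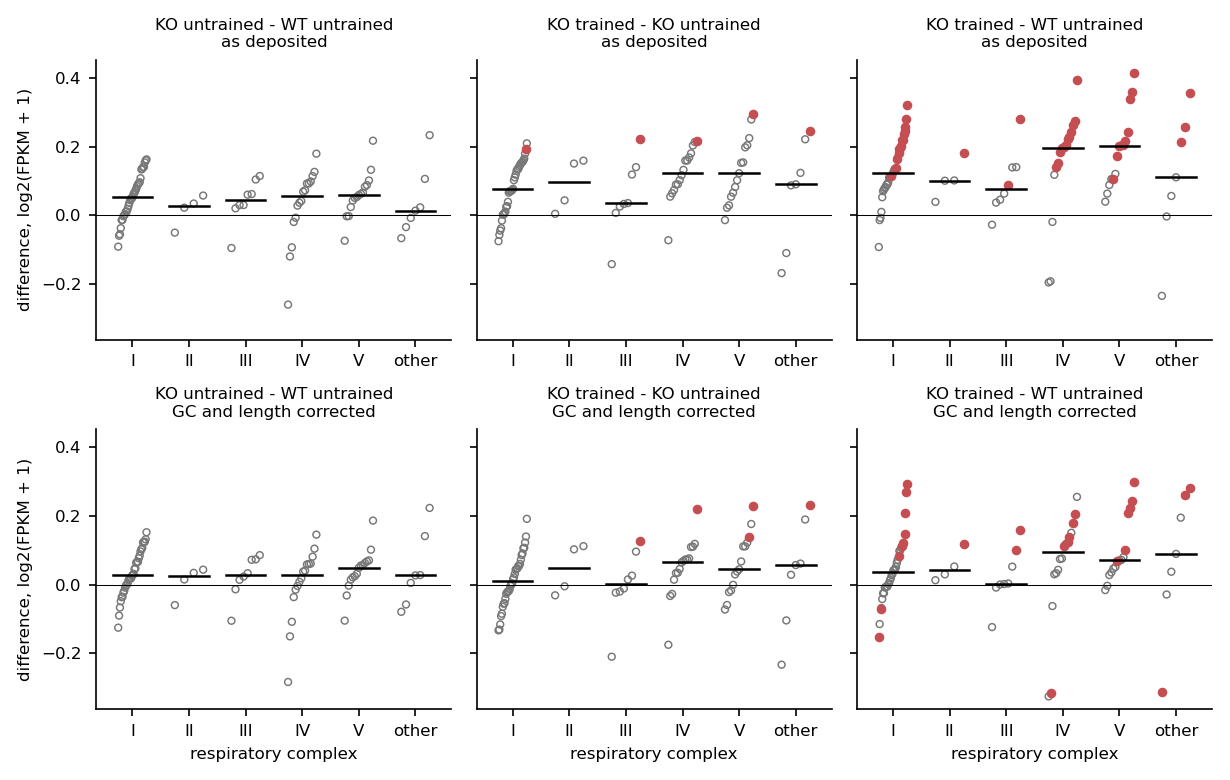
Difference between arms on the log2(FPKM + 1) scale for each member, by complex, in the 3 comparisons of arms, as deposited (top) and after the GC and length correction (bottom); filled red points passed the limma test at an adjusted p under 0.05 and bars are medians. In the right-hand panels 41 members passed as deposited, all higher, and 27 after correction, 4 of them lower.

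Atp5j2 had the largest difference in that pair, with 124 to 186 FPKM in the libraries labelled WT and 198, 207 and 218 FPKM (lowest, median and highest of 8) in the trained libraries labelled KO. The 2 arms did not overlap, and the difference was 0.42 ± 0.06 (limma adjusted p = 8.01e-05), or 0.30 ± 0.05 (adjusted p = 0.000553) corrected. Uqcrh lay at 195, 201 and 215 FPKM in the libraries labelled WT, below all trained libraries (0.28 ± 0.04, adjusted p = 5.88e-05). Sdhaf2 lay at 10.7, 11.2 and 12.1 FPKM there, again below all trained libraries (0.26 ± 0.04, adjusted p = 0.000121). In all, 6 members did not overlap between these arms, namely those 3, Sdhc, Cox7a2 and Cox7b, against 3.11% of all tested genes.

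The other members named by size of difference belonged to complexes I, IV and V and to the other name matches. In complex I these were Ndufa11 (0.32), Ndufa8 (0.28), Ndufb9 (0.26), the core flavoprotein-module subunit Ndufv2 (0.25), Ndufa2 (0.24), Ndufa3 (0.22) and Ndufa5 (0.22), given as differences on the log2(FPKM + 1) scale. In complex IV they were Cox6b2 (0.39), Cox4i2 (0.27), Cox5b (0.26), Ndufa4 (0.24), Cox7a2 (0.23), Cox7c (0.22) and Cox8a (0.21). Complex V gave Atp5g1 (0.36), Atp5l (0.34), the F1 delta subunit Atp5d (0.24), Atp5o (0.22), Atp5k (0.21) and Atp5g2 (0.20), and the other name matches Cox7a2l (0.36) and Sdhaf3 (0.21). Cox6b2 and Cox4i2 are at 1.63 and 1.43 FPKM, where the added 1 FPKM compresses a change. Neither passed after correction (limma adjusted p = 0.19 and 0.292). Nor did Ndufa2, Ndufa5, Cox8a, Atp5k, Atp5g2 and Sdhaf3, while the rest named in this paragraph passed with and without it. Among that rest, Atp5d was called as deposited in 7 of 16 leave-outs of 1 library and the others in all 16.

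Among the anchors of each complex, Ndufb8 (0.18, limma adjusted p = 0.021), Cox4i1 (0.15, 0.0337), Cox5a (0.18, 0.013) and Atp5b (0.11, 0.0333) rose in this pair. Only Atp5b of these was called after correction (0.07, adjusted p = 0.0473). As deposited, Ndufb8 and Cox5a stayed called in all 16 leave-outs of 1 library, Cox4i1 in 10 and Atp5b in 8. Ndufs1 differed by -0.09 (0.0539), Ndufv1 by 0.05 (0.347), Ndufa9 by 0.09 (0.0755), Sdha by 0.04 (0.418), Sdhb by 0.10 (0.0921), Uqcrc1 by 0.06 (0.388), Uqcrfs1 by 0.04 (0.57) and Atp5a1 by 0.04 (0.425). Subunits of 1 complex thus had different values: in complex II Sdha differed by 0.04 and the membrane anchor Sdhc by 0.18, and in complex V Atp5a1 by 0.04, Atp5b by 0.11 and Atp5j2 by 0.42. Genes within a complex also differ in length, with 2431 bases for Atp5a1 and 477 for Atp5j2. Whether subunits differed from each other was not tested.

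Isoform sets of complexes IV and V were compared in the same pair of arms. In 2 sets both forms rose as deposited: Cox4i1 by 0.15 and Cox4i2 by 0.27 (limma adjusted p = 0.0337 and 0.0452), and Cox6b1 by 0.20 and Cox6b2 by 0.39 (0.0184 and 0.0372). After the GC and length correction no gene of these 2 sets was called. Cox7a2 rose by 0.23 (limma adjusted p = 0.000646) while its muscle counterpart Cox7a1 differed by -0.19 (0.405). Cox6a1 differed by 0.12 (0.368) and Cox6a2 by -0.20 (0.253). Ndufa4 rose by 0.24 (0.00126) and Ndufa4l2 differed by -0.02 (0.907). Atp5g1 and Atp5g2 rose by 0.36 (0.000694) and 0.20 (0.0171), while Atp5g3 differed by 0.11 (0.189). Of these other sets, Cox7a2, Ndufa4 and Atp5g1 were called after correction too and Atp5g2 was not, while Cox6a2 was called lower only after it. Whether the members of a pair differed from each other was not tested.

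Males and females were compared across the 24 libraries, with the arm in the model. Here 39 members (46.4%) were higher in males, against 14.8% of all tested genes, and 1, Ndufs1, was lower (-0.10 ± 0.03, limma adjusted p = 0.0189), against 13.8%. After the correction 5 were higher in males, against 1.7% of tested genes, and 2 lower, against 1.73%. The 5 were Atp5g1, Atp5sl, Cox7c, Ndufa11 and Ndufv2, and the 2 were Atp5j and Ndufb10. The members' median was 0.12 as deposited and 0.02 after correction, with medians below 0 in complexes II to V. With equal sums of FPKM 28 members were higher and 5 lower, and all tested genes went from 1857 higher and 1738 lower to 972 and 2600. Across all tested genes the male minus female difference had a rank correlation of 0.72 with transcript GC content (12118 genes) and of -0.39 with length, as a description over genes, which are not independent.

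Of the members higher in males, 4 were called with and without the correction: Atp5g1, Atp5sl, Cox7c and Ndufa11. Atp5g1, which encodes the membrane-ring subunit, lay at 106 to 122 FPKM in the 4 females and at 143 to 168 FPKM in the 4 males labelled WT. It lay at 112 to 139.7 FPKM in untrained females and at 163 to 186 FPKM in untrained males labelled KO. In both untrained arms the sexes did not overlap, whereas trained females lay at 158 to 172 FPKM and trained males at 162 to 194 FPKM, which overlap. Over all arms the difference was 0.35 ± 0.05 (limma adjusted p = 0.00025), and 0.16 ± 0.04 (adjusted p = 0.0177) corrected. Its training difference in males minus that in females was -0.41 ± 0.10 (adjusted p = 0.0977), which did not pass.

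No member's training or genotype difference was shown to differ between the sexes. The tests of sex by genotype label and sex by training called none of the 84 (limma, with 2 and 9 members at an unadjusted p under 0.05), against 0% and 0.00795% of all tested genes. In the anchors, sex differences were 0.18 for Cox4i1 (adjusted p = 0.00545) and 0.13 for Uqcrc1 (0.0346) as deposited, and both had the opposite sign after correction (-0.04 and -0.02, neither called).

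**Figure D5:**
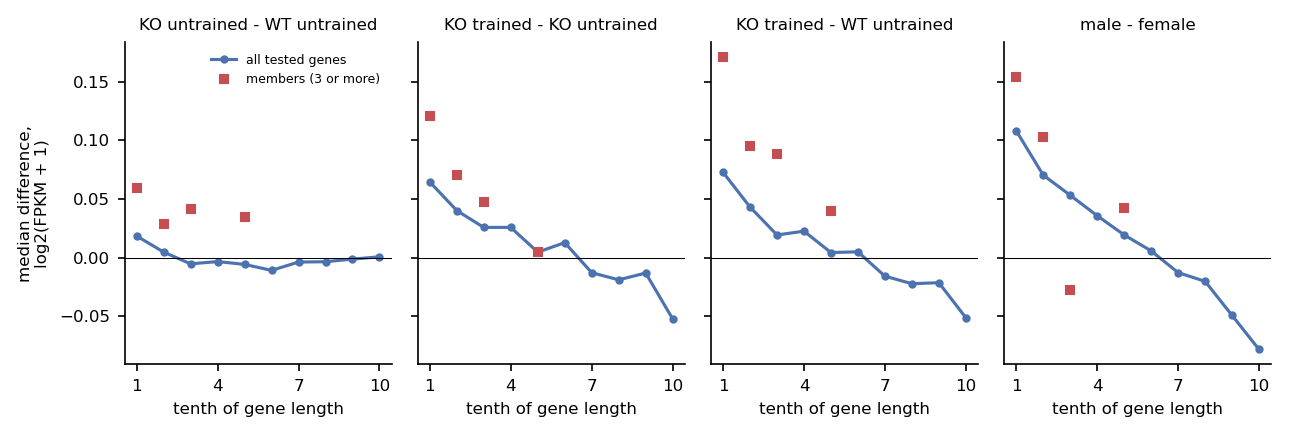
Median difference on the log2(FPKM + 1) scale of all tested genes in 10 equal classes of gene length (1 shortest, 10 longest; blue line) and of the members in each class that holds at least 3 of them (red squares), for the 3 comparisons of arms and for sex. In the shortest class, which holds 60 members, the members' median is above that of all genes in all 4 panels: 0.06 against 0.02, 0.12 against 0.06, 0.17 against 0.07 and 0.15 against 0.11.

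Length classes of equal size (about 1258 genes each) place the members among genes of like length. In the shortest class (30 to 1172 bases, 1258 genes, 60 of them members) the training difference had a median of 0.06 over all genes and of 0.12 over members. In the next class (14 members) these were 0.04 and 0.07. In the longest class, which holds no member, all genes had a median of -0.05. For trained libraries labelled KO against libraries labelled WT, the shortest class had medians of 0.07 over all genes and 0.17 over members, with 23.8% of its genes higher and 5.48% lower, and the longest class had 4.37% higher and 20.8% lower. Across all tested genes the rank correlation of the difference with length was -0.21 for training and -0.20 for that pair, and across the 84 members -0.27 and -0.26. Ribosomal protein genes, which are also short, had medians of 0.13 with training and 0.18 in that pair over 77 genes. The part of length and GC content in the members' differences was not tested beyond these values and the correction.

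Genes that work beside the members were read from lists of the pathway. None of 13 mitochondrially encoded subunits was analysed here. Of 42 tested assembly factors, with training 2 rose, Timmdc1 and Ecsit, both factors of complex I assembly, and 1 fell, Tmem186. Over all tested genes 3.5% rose and 2.17% fell. Timmdc1 lay at 6.11, 6.64 and 8.09 FPKM (lowest, median and highest of 8) in the untrained libraries labelled KO and at 8.07, 8.77 and 9.15 FPKM in the trained ones, a difference of 0.29 ± 0.05 (limma adjusted p = 0.0034). The groups met only at 8.07 and 8.09 FPKM. Tmem186, also a factor of complex I assembly, lay at 6.67, 7.61 and 8.77 FPKM and then at 5.91, 6.46 and 6.999 FPKM, a difference of -0.20 ± 0.05 (adjusted p = 0.0351). By genotype label 1 of the 42 was called, against 1.42% of all tested genes. This was Ndufaf1, another complex I assembly factor, which fell by 0.28 (SE 0.05, adjusted p = 0.00754), from 9.55, 11.8 and 12.8 FPKM in the libraries labelled WT to 8.14, 9.47 and 10.7 FPKM in the untrained libraries labelled KO, with overlap.

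In trained libraries labelled KO against libraries labelled WT, 8 of 42 assembly factors rose and 3 fell, where 12.9% and 11.5% of all tested genes did. After the GC and length correction 6 rose and 6 fell, against 14.3% and 13.9% of all genes, and with training 3 and 3 in place of 2 and 1. Of 14 genes of the electron carriers 4 rose, among them Coq5 of ubiquinone synthesis (0.21, limma adjusted p = 0.00122) and Cyc1 (0.15, adjusted p = 0.022), and none fell, with 2 and 1 after correction. Of 22 mitochondrial import genes 5 rose and 1 fell, of 18 citric acid cycle genes 4 rose, and of 15 glycolysis genes 7 rose, with no gene lower in the last 2 lists. After correction the counts higher and lower were 4 and 0 for import, 6 and 0 for the citric acid cycle and 6 and 1 for glycolysis. With training none of the citric acid cycle, glycolysis or electron carrier genes passed. Of the 22 import genes 1, Tomm40l, rose (0.16, adjusted p = 0.049), against 3.5% of all tested genes. Dlat, a subunit of pyruvate dehydrogenase, was higher by genotype label (0.14 ± 0.03, adjusted p = 0.0297), as 1 of the 18 citric acid cycle genes, against 1.42% of all tested genes called.

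Of 16 tested regulators of mitochondrial biogenesis none passed by genotype label or with training. Ppargc1a, the coactivator known as PGC-1alpha, differed by 0.18 by genotype label (limma adjusted p = 0.199) and by -0.15 with training (0.247), and Nrf1 by 0.05 (0.694) and 0.11 (0.218). In trained libraries labelled KO against libraries labelled WT, Nrf1 (0.16, adjusted p = 0.0134) and the mitochondrial deacetylase Sirt3 (0.26, adjusted p = 0.0028) rose and Ppargc1b fell by 0.30 (adjusted p = 0.0126). After correction 4 regulators were higher and 1 lower in that pair, against 14.3% and 13.9% of all tested genes.

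Cell-type markers were set beside these values. With training none of the 8 neuron, 7 excitatory neuron, 7 interneuron, 9 astrocyte, 9 oligodendrocyte, 8 microglia or 9 striatal markers passed, whereas of 7 endothelial markers Ly6c1 rose (0.49, limma adjusted p = 0.00763) and of 6 mural cell markers Pdgfrb fell by 0.28 (adjusted p = 0.0311). Over all tested genes 3.5% rose and 2.17% fell. Markers that did not pass still had medians larger than the members' 0.10: 0.25 for oligodendrocytes (8 of 9 positive, 5 at an unadjusted p under 0.05) and 0.22 for excitatory neurons (6 of 7 positive, 0 at that p). After the GC and length correction 1 oligodendrocyte marker was called higher and 1 lower with training. By genotype label none of these markers passed, with medians of -0.14 for oligodendrocytes, -0.21 for excitatory neurons and 0.18 for interneurons. Striatal markers had a median of -0.22 by genotype label (0 of 9 positive). For males minus females their median was 0.42 (9 of 9 positive), and none passed. In trained libraries labelled KO against libraries labelled WT, the counts higher and lower were 2 and 1 for neurons, 2 and 0 for excitatory neurons, 2 and 0 for interneurons, 2 and 1 for astrocytes, 1 and 1 for oligodendrocytes, 1 and 3 for microglia, 1 and 0 for endothelium and 0 and 2 for mural cells, with none for striatum. Striatal markers had a median of -0.42 in that pair, with 0 of 9 positive and 0 at an unadjusted p under 0.05. Of all tested genes 12.9% were higher and 11.5% lower. After correction the counts were 1 and 2 for neurons, 1 and 1 for interneurons, 1 and 1 for astrocytes and 0 and 3 for microglia. The other counts of these lists stayed the same, and 14.3% and 13.9% of all tested genes were then higher and lower. Summed oligodendrocyte markers lay at 1019 to 1638, 717 to 1333 and 1075 to 1798 FPKM in the libraries labelled WT, the untrained and the trained libraries labelled KO. Summed excitatory neuron markers lay at 1304 to 1748 (median 1577), 834 to 1660 (1509) and 1437 to 1681 FPKM (1502) in the same order. The list differences above come from arm means, which 1 far library can move. Of 7 heart and muscle markers 3 were rows of the table, summing to between 7.06 and 14.03 FPKM in a library, and neither of the 2 tested passed. The part of cell makeup in the members' differences was not tested.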

How the data were processed

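The authors deposited 1 table of FPKM values per gene and library. For the steps before deposit, the submitters' processing notes name FastQC 0.11.7, Trimmomatic 0.38, STAR 2.5.3a, mm10 and featureCounts of Subread 1.6.3; the annotation and FPKM formula are not given in the sources used here. Relative gene lengths and whole reads were recovered from the FPKM steps (99.986% of values whole within 0.01 read). A constant set from annotated GENCODE exon lengths turned these lengths into bases. The 12572 genes whose FPKM averaged 1 or more were tested as log2(FPKM + 1) with limma 3.58.1 (trend, sex as covariate) on the 2 arms compared, with Benjamini-Hochberg adjustment over all 12572 genes and a threshold of 0.05. Fold values are on that scale and understate changes of low genes. Scripts were tested on simulated data. Named genes were up to 25 per comparison of arms, by size of difference among those called and of the same sign in both sexes (the 3 smallest p-values where none passed), 12 marker subunits, isoform sets, extremes of level and spread, and up to 4 called genes per list. Members named only for not overlapping, or for a call after correction or by sex, were chosen after their values were seen. The separate values of 1 member are not reported here, though it is in every count. Members and lists were chosen with earlier results of these data known. Alternatives covered scaling, filters, pseudocount, GC and length correction, animal number, array weights, limma-voom on recovered reads, a replicate block and leaving out each library.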

Additional observations from a re-analysis of the deposited data

Results flagged for a closer look

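In 7 of 261 sets of 8 libraries (2.68%), 1 library lay far from the other 7, where chance gives about 1 in 20. The numbers given are the gap to the nearest library over the whole range, which was beyond Dixon's 95% critical value in each. Of these, 3 belonged to trained male 3 labelled KO, the library with the highest median over the members. In it Uqcrh was at 275 FPKM against 234 to 249.6 in the others (0.602), Ndufb8 at 211 against 162 to 181 (0.576) and Ndufv1 at 123 against 103 to 111 (0.576). Trained male 4 labelled KO was lowest for Sdhd, a membrane anchor of complex II, at 58.0 FPKM against 65.0 to 67.6 (0.739), and for Atp5a1 at 374 against 393 to 411 (0.529). WT female 2 was highest for Atp5f1, the b subunit of the ATP synthase stalk, at 118 FPKM against 102.0 to 105 (0.781). Untrained female 4 labelled KO was highest for Uqcrfs1 at 72.9 FPKM against 59.3 to 64.5 (0.594).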

How the results depend on the processing

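Values are counts of the 84 members called unless said otherwise. The genotype-label count of 0 became 2 with the GC and length correction without untrained male 3 labelled KO and 1 with animal number over 1000 as a covariate plus the correction; both settings were chosen after seeing the data. Training (5) gave 8 and 0 in those settings, 0 with animal number alone, 0 in males over 1000, 15 in 1 fit of 24 libraries, 25 with array weights, 2 without the sex covariate, 14 at a threshold of 0.1, and 1 to 17 when 1 library was left out. Trained KO against WT (41) gave 27 with GC and length or length correction (23 higher and 4 lower in both), 0 with animal number with and without the correction (median difference 0.030 with it), and 27 to 54 with 1 library left out. With animal number in the model, the training difference rests on 2 untrained males labelled KO and this one on 1 male labelled WT. With animal number and the correction, Cox6c was at -0.046 and Ndufb3 at -0.031. Sex (39 higher and 1 lower, 40 in all) gave 7 with the correction (5 higher and 2 lower, median 0.017), 11 without untrained male 3 as well (0.023), 3 with animal number and correction (1 higher and 2 lower, 0.0056), 18 with GC correction (all higher) and 23 with length correction (14 higher and 9 lower, 0.023), and 31 to 51 with 1 library left out. Cox4i1 turned to -0.043, -0.025 and -0.036 in the first 3 and Uqcrc1 to -0.022, -0.010 and -0.032. Training by sex (0) gave 2 in 1 fit, 8 with array weights, 1 with length correction, 2 with quantile normalization and 1 at a threshold of 0.1. The cause was not tested.

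Replicate numbers name different animals, and same-numbered libraries did not deviate together (mean correlations 0.025, -0.070 and -0.102). With a replicate block, which leaves out the trained female whose title has no number and its partner, training gave 0 with and without the correction and trained KO against WT 18 and 16 (with correction). For sex the block gave 53 higher and 2 lower without the correction. It gave 8 with correction, where Cox4i1 was at -0.053 and Uqcrc1 at -0.019. Limma-voom on the recovered reads called 374 genes higher and 383 lower with training, and 1519 and 1609 in trained KO against WT, over all genes; members numbered 5, and 37 higher and 1 lower. Depth limits the 5 isoforms under 5 FPKM.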
